A study of Mus musculus with 64 samples.

Results

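The genes described here are 7 genes of neuronal chloride transport, namely the cation-chloride cotransporters Slc12a5 and Slc12a2, the chloride channel Clcn2, and the kinases Wnk1, Wnk2, Wnk3 and Stk39. They were chosen by name and matched by Ensembl identifier to the GENCODE vM21 annotation, which found 7 members among the 18432 genes of the table. In both brain regions Slc12a5 fell in the adult Cyfip2 knock-in (KI) mice, by 24.4% in the cortex at postnatal week (PWK) 28, by 29.6% in the hippocampus at PWK 14 and by 17.8% in the hippocampus at PWK 28. Clcn2 fell by 22.8% in the cortex at PWK 28 and by 30.1% in the hippocampus at PWK 14. Slc12a2 and the 3 WNK kinases did not pass the test between genotypes at any age, and Stk39 rose by 13.2% in the cortex at PWK 28. No member passed the test at PWK 1 or PWK 7.

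Neurons set their internal chloride largely by 2 transporters that work in opposite directions. NKCC1, the product of Slc12a2, carries sodium, potassium and chloride into the cell, and KCC2, the neuronal product of Slc12a5, carries potassium and chloride out, so that chloride flows inward when a GABA-A receptor opens in a mature neuron. ClC-2, the product of Clcn2, is a chloride channel that opens on hyperpolarization and is found in neurons, astrocytes and oligodendrocytes. WNK kinases sense chloride and osmotic stress and activate SPAK, the product of Stk39, and its relative OSR1, which phosphorylate the cotransporters, activating NKCC1 and inhibiting KCC2. In forebrain development KCC2 rises as neurons mature, and NKCC1 is also strong in glia and in the choroid plexus, the tissue of the ventricles that secretes cerebrospinal fluid.

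RNA-seq was performed on frontal cortex and hippocampus of C57BL/6N mice at PWK 1, PWK 7, PWK 14 and PWK 28. KI mice carried 1 Arg87Cys allele of Cyfip2 beside a wild-type allele in every cell, and WT mice were their littermates without it; neither genotype received a treatment or carried another engineered allele. Each of the 16 groups held 4 libraries, 64 in all, and the mice were different at each age. The ages cover the course of the model, from neonatal spasms through a seizure-free juvenile period to spontaneous seizures and deaths from about PWK 14 onward, so that the KI mice sampled at PWK 28 were survivors. Both regions were dissected from each mouse, but no label says which cortical and hippocampal library came from 1 animal. No label gives a sequencing batch, and age and any batch cannot be told apart. In whole tissue, fewer cells of a type and less RNA per cell cannot be told apart either.

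The values are the normalized counts that the authors deposited, and they summed to between 29225576 and 32601227 per library. No 2 libraries were copies of each other, the highest correlation being 0.9895. The table does not separate the Cyfip2 alleles, so it cannot check the genotype. Total Cyfip2 averaged 18112, 35623, 41799 and 34727 normalized counts in WT and 19505, 38346, 33510 and 25727 in KI cortex at PWK 1, 7, 14 and 28 (n = 4 each). The hippocampal means were 15205, 30520, 32306 and 27610 in WT and 15976, 29045, 28624 and 26863 in KI mice. A 4-gene list of hippocampal markers summed to 14741 to 23743 in hippocampal and 1982 to 4576 in cortical libraries, without overlap. The Y-linked gene Ddx3y was at 826 or more in every library. The amount of choroid plexus RNA varied widely among hippocampal libraries: Ttr (transthyretin, made in the choroid plexus) lay between 593.5 and 114193 normalized counts in those of PWK 7, 14 and 28. In the cortex 1 library stood apart, WT replicate 2 of PWK 28, whose 5 choroid plexus markers summed to 21526.

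Levels can be compared between genes only per length, here per kilobase of the longest annotated transcript. In WT mice from PWK 7 onward Slc12a5 was the most abundant member, with group means of 2209 to 3220 normalized counts per kilobase. Wnk2 (559.2 to 845.3), Clcn2 (642.9 to 807.7) and Wnk1 (638.1 to 763.5) lay in overlapping ranges of normalized counts per kilobase, followed by Stk39 (544.1 to 627.9) and Slc12a2 (372.8 to 594.9). Wnk3, an X-linked WNK kinase, was the lowest at 142.8 to 161.1 normalized counts per kilobase. On the scale of normalized counts per gene, and over all 64 libraries, Slc12a2 spanned the widest range, from 1580 to 4722, a 2.99-fold difference. Slc12a5 ranged from 8291 to 19988, Clcn2 from 1047 to 2687, Wnk1 from 5343 to 9398, Wnk2 from 3475 to 6309, Wnk3 from 885.2 to 1874 and Stk39 from 1419 to 2690 normalized counts.

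**Figure D1:**
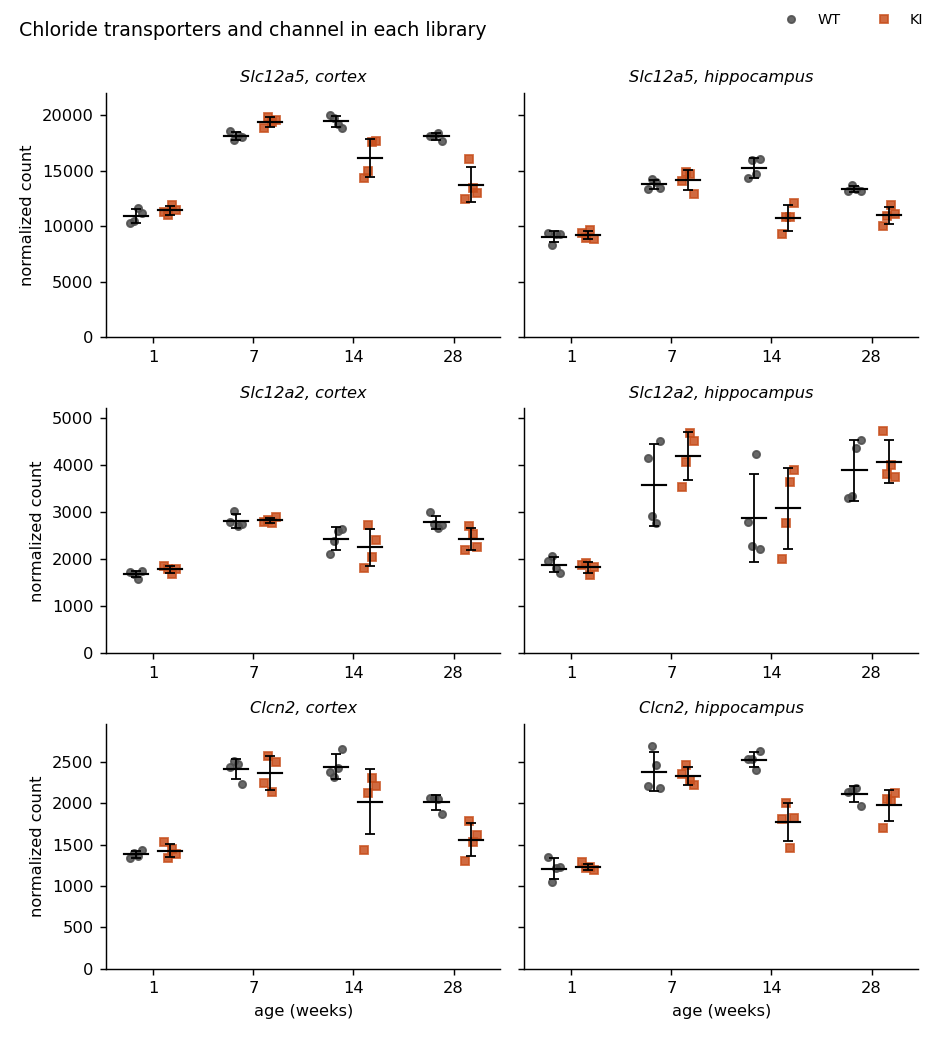
Normalized counts of Slc12a5, Slc12a2 and Clcn2 in each library (points) by postnatal week, region and genotype, with bars at the group mean and the SD of 4 libraries. The KI libraries of Slc12a5 lie below every WT library at PWK 14 and PWK 28 in both regions, while those of Slc12a2 overlap the WT libraries at every age.

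Slc12a5 encodes the chloride extruder and lies on chromosome 2 at positions 164960802 to 164999731 of the plus strand in GRCm38 (ENSMUSG00000017740). RefSeq gives it 2 transcription starts, which lead to transcripts that differ in their first exon. The normalized counts are per gene and do not separate them. The bases before the first exon of each start are printed because Slc12a5 is the member with the most calls. Its promoter windows were also the only ones, among those of the 6 members searched, to hold any of 3 motifs. No window of Slc12a2 was searched. The motifs were the E-box CACGTG, the EGR site GCGNGGGCG and the AP-1 site TGANTCA, read on both strands from 250 bases before to 50 bases after each start, and they occur in 7.15%, 5.55% and 7.81% of all 32851 RefSeq promoter windows of that length. The upstream window (chr2:164960596-164960801, plus strand, 206 bases, GRCm38.p6) holds an AP-1 motif and the downstream one (chr2:164967738-164967982, plus strand, 245 bases) an E-box, both in capitals. The letters describe these windows and carry no measurement of binding.
Slc12a5 upstream start: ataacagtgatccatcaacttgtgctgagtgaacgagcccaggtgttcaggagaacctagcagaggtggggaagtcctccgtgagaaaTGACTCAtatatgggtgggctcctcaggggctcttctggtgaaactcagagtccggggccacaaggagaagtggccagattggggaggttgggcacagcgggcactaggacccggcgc
Slc12a5 downstream start: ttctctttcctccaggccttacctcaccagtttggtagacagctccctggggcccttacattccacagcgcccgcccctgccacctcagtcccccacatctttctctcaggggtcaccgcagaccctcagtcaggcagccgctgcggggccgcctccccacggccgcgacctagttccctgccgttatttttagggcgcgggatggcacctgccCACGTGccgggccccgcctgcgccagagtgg

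At PWK 1 Slc12a5 averaged 10884 ± 631 normalized counts in WT and 11416 ± 384 in KI cortex, and 9064 ± 516 in WT and 9210 ± 396 in KI hippocampus (SD, n = 4 each), with overlapping libraries in both regions. At PWK 7 the WT cortical libraries held 18573, 17728, 18192 and 17970 normalized counts and the KI libraries 18796, 19767, 19356 and 19510. Every KI library was above every WT library there, a separation seen in 2.45% of all genes in that comparison, and the log2 fold change of 0.10 did not pass the test (limma adjusted P = 0.471 over all genes). In the hippocampus of PWK 7 the means were 13748 ± 415 in WT and 14113 ± 892 in KI mice. Few genes of any kind were called at these ages, 0.00546% of those tested in the cortex at PWK 1, 0.00545% at PWK 7, and 0.0109% and 0.0218% in the hippocampus, and none of the 7 members was among them.

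At PWK 14 the WT cortical libraries held 19988, 19695, 19149 and 18806 normalized counts of Slc12a5 and the KI libraries 14351, 14934, 17518 and 17648. All 4 KI libraries lay below the WT libraries, as did those of Clcn2 and of 7.51% of all genes in that comparison. The log2 fold change of Slc12a5 was -0.27 ± 0.07 (SE; 95% interval -0.44 to -0.11) and did not pass the threshold (limma adjusted P = 0.0588). No member was called in this comparison, in which 5.18% of genes were. Without KI replicate 3, or without KI replicate 4, the 2 KI libraries nearest the WT level, Slc12a5 was called, the adjusted P ranging from 0.0363 to 0.159 over the 8 fits that left out 1 library.

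At PWK 28 the WT cortical libraries held 18075, 18134, 18355 and 17667 normalized counts of Slc12a5 and the KI libraries held 12467, 16018, 13404 and 12993. The 4 KI libraries were again all below, the nearest being replicate 2. Slc12a5 fell by 0.40 ± 0.07 on the log2 scale (SE; 95% interval of the change -0.57 to -0.24; limma adjusted P = 0.00389). It was 1 of 2 members that fell in a comparison in which 10.03% of genes fell and 12.2% rose. KI libraries were all below WT libraries for 11.8% of all genes in that comparison and all above for 14.1%.

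The hippocampus showed its lower Slc12a5 level at both adult ages. At PWK 14 the WT libraries held 14286, 15903, 14693 and 16001 normalized counts and the KI libraries 9258, 10812, 10846 and 12107, so that the groups were well apart. Slc12a5 fell by 0.51 ± 0.09 on the log2 scale (95% interval of the change -0.70 to -0.31; limma adjusted P = 0.00523), with 7.95% of all genes called lower and 12.2% having all KI libraries below all WT libraries. At PWK 28 the WT libraries held 13131, 13686, 13312 and 13140 normalized counts and the KI libraries 9995, 10880, 11897 and 11074. The fall was 0.28 ± 0.05 on the log2 scale (95% interval of the change -0.40 to -0.17; limma adjusted P = 0.004), with 6.91% of all genes called lower and 9.77% having all KI libraries below.

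The difference in Slc12a5 was not shown to differ between regions or adult ages. By limma, the KI effect in the hippocampus minus that in the cortex was -0.23 on the log2 scale at PWK 14 (95% interval -0.48 to 0.01; adjusted P = 0.310), and the effect at PWK 28 minus that at PWK 14 was -0.13 in the cortex (95% interval -0.36 to 0.10) and 0.22 in the hippocampus (95% interval 0.01 to 0.44; adjusted P = 0.385). At PWK 28 the hippocampal effect minus the cortical one was 0.12 (95% interval -0.07 to 0.31). No member passed any of these limma tests of a difference, in which 2.85% of genes were called between regions at PWK 14, 4.57% between regions at PWK 28, and 0% between the adult ages in the cortex and 0% in the hippocampus. Between the adult ages, 2770 and 2274 genes had an unadjusted P under 0.05 in cortex and hippocampus.

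Markers of other cell types and of neurons moved with genotype in the same libraries. The summed level of 6 neuronal markers (Rbfox3, Snap25, Syt1, Map2, Stmn2 and Slc17a7) lay between 216175 and 235695 normalized counts in WT and between 256908 and 272069 in KI cortex at PWK 28, where Slc12a5 was lower; Stmn2 (log2 fold change 0.38) and Slc17a7 (0.89) were called higher and the other 4 were not called. In the hippocampus the neuronal sums overlapped, at 189519 to 201539 in WT and 174850 to 217811 in KI mice at PWK 14, and at 176312 to 187786 and 182059 to 196858 at PWK 28. Syt1, a synaptic vesicle protein, was called lower at both ages there, with log2 fold changes of -0.37 and -0.20, and Slc17a7 was called higher at PWK 28 at 0.40. None of the defining markers was at 0 in all libraries of a group.

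The 3 GABAergic markers (Gad1, Gad2 and Slc32a1) summed to 13916 to 15288 normalized counts in WT and 18318 to 25643 in KI cortex at PWK 14, and to 16061 to 22205 and 22834 to 34021 at PWK 28. In the hippocampus they summed to 14786 to 16294 in WT and 17464 to 20883 in KI mice at PWK 14, and to 13270 to 15224 and 17099 to 20520 at PWK 28, so that the genotypes did not overlap in either region. All 3 were called higher in the cortex at PWK 14 and in the hippocampus at PWK 28, 2 of 3 in the cortex at PWK 28 and 1 of 3 in the hippocampus at PWK 14. The 6 astrocyte markers summed to 43236 to 47727 in WT and 76077 to 195819 in KI hippocampus at PWK 14, and to 45145 to 46791 and 74481 to 86362 at PWK 28. The upper end at PWK 14 was KI replicate 1 alone, the next KI library being at 87361, and the same library had the highest microglial sum (19612) and the lowest Slc12a5 of its group. Without it the log2 fold change of Slc12a5 was -0.44 (limma adjusted P = 0.00261). Of the 6 astrocyte markers 3 were called higher and none lower in the hippocampus at both ages, 2 higher and 1 lower in the cortex at PWK 14, and 1 higher and 2 lower in the cortex at PWK 28, where the sums overlapped (33540 to 39464 in WT, 34560 to 43857 in KI mice). Gfap was called higher in all 4 comparisons and made up most of the genotype difference in the hippocampal sums. Alone it lay at 7502 to 9231 in WT and 40059 to 131431 in KI hippocampus at PWK 14. At PWK 28 it lay at 8803 to 9894 in WT and 32067 to 44711 in KI hippocampus. Of the 6 microglial markers 4 were called higher in the hippocampus at PWK 28 (sums of 7574 to 8698 in WT and 9664 to 10581 in KI mice), none at PWK 14 in either region and 1 in the cortex at PWK 28. Of the 4 endothelial markers 3 were called lower in the cortex at PWK 14, with sums of 4854 to 5365 in WT and 3582 to 3998 in KI mice. The part of these cell type signals in the fall of Slc12a5 was not tested.

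Slc12a2, the chloride importer (chromosome 18, 57878678 to 57946821, plus strand, GRCm38; ENSMUSG00000024597), was not called between genotypes at any age. In the cortex the WT libraries of PWK 14 held 2099, 2386, 2600 and 2637 normalized counts and the KI libraries 1804, 2716, 2043 and 2408. At PWK 28 they held 2986, 2738, 2652 and 2714 in WT and 2192, 2707, 2520 and 2260 in KI mice. KI replicate 2 reached the WT range at PWK 28 and the other 3 KI libraries were below it. The log2 fold change at PWK 28 was -0.20 ± 0.08 (95% interval -0.37 to -0.03; limma adjusted P = 0.0840). The 6 oligodendrocyte markers summed to 103786 to 156432 in WT and 86393 to 112990 in KI cortex at PWK 28, and none of them was called. With the mean log2 level of these markers as a covariate, a fit chosen after the data were seen, the log2 fold change of Slc12a2 was -0.13 (adjusted P = 0.312).

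In the hippocampus Slc12a2 was high in libraries rich in choroid plexus RNA. The WT libraries of PWK 14 held 2789, 2271, 4223 and 2220 normalized counts of Slc12a2 and 1150, 16386, 94520 and 876.8 of Ttr. The KI libraries held 1989, 2766, 3635 and 3895 of Slc12a2 and 787.2, 15037, 89253 and 79101 of Ttr. In each genotype the libraries with Ttr of 79101 or more were the ones with the highest Slc12a2, namely 1 WT and 2 KI libraries. The log2 fold change of Slc12a2 was 0.10 ± 0.25 (95% interval -0.46 to 0.65), an interval that includes a rise as large as the fall of Slc12a5. With the mean log2 level of the 5 choroid plexus markers as a covariate, also chosen after the data were seen, it was -0.09 (adjusted P = 0.677).

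**Figure D2:**
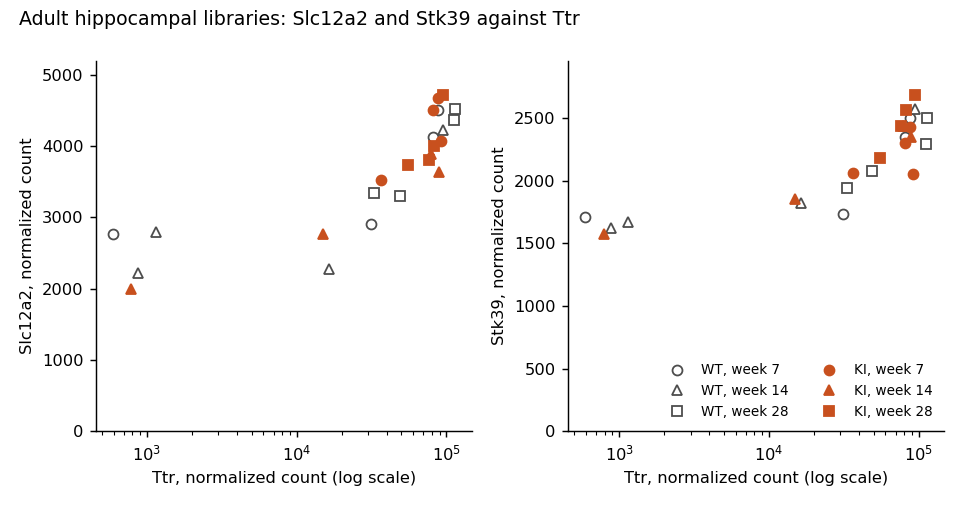
Slc12a2 (left) and Stk39 (right), in normalized counts, against the choroid plexus marker Ttr, in normalized counts on a log scale, in the hippocampal libraries of PWK 7, 14 and 28 (open symbols WT, filled symbols KI, one symbol shape per age). The libraries with the least Ttr are at the lower end for both genes, and at high Ttr the levels spread, with 1 KI library of PWK 7 at 91868 for Ttr and 2058 for Stk39.

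At PWK 7 the WT hippocampal libraries held 4131, 2900, 2772 and 4505 normalized counts of Slc12a2 with 80928, 31323, 593.5 and 87362 of Ttr, and the KI libraries 3524, 4065, 4671 and 4503 with 36490, 91868, 87406 and 81456. The log2 fold change was 0.25 ± 0.15 (limma adjusted P = 0.850), and 0.08 with the choroid plexus covariate. At PWK 28 the WT libraries held 3298, 3337, 4363 and 4515 and the KI libraries 4722, 3802, 3994 and 3737, with a log2 fold change of 0.08 (95% interval -0.17 to 0.32) and of 0.03 with the covariate. Slc12a5 kept its calls with the covariate, its log2 fold change being -0.54 at PWK 14 (adjusted P = 0.00489) and -0.28 at PWK 28 (adjusted P = 0.00689). Within the hippocampal groups from PWK 7 onward, however, Slc12a5 had a Pearson r of only 0.204 with these markers. The astrocyte and microglial markers, which moved with genotype in the hippocampus, were not fitted as covariates.

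The ratio of Slc12a5 to Slc12a2 was taken within each library, so it is free of library scaling. Its mean in WT cortex was 6.50 ± 0.59 at the first age, 6.46 ± 0.41 at PWK 7, 8.07 ± 1.08 at PWK 14 and 6.53 ± 0.36 in the oldest mice (SD, n = 4 each). In WT hippocampus it averaged 4.87 ± 0.63, 4.04 ± 1.08, 5.70 ± 1.76 and 3.51 ± 0.62 at the same ages. Corrected for transcript length the WT ratio was between 3.80 and 8.73, so Slc12a5 exceeded Slc12a2 in all groups on that scale too.

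The KI ratio averaged 6.44 ± 0.44, 6.87 ± 0.13, 7.34 ± 1.33 and 5.67 ± 0.25 in the cortex at PWK 1, 7, 14 and 28, and 5.09 ± 0.53, 3.41 ± 0.51, 3.66 ± 0.78 and 2.73 ± 0.41 in the hippocampus. In the cortex at PWK 28 the WT libraries had ratios of 6.054, 6.623, 6.921 and 6.511 and the KI libraries 5.688, 5.918, 5.319 and 5.750, all 4 below WT. The mean log2 ratio was lower by 0.203 in KI mice (exact two-sided permutation test, P = 0.0286, the smallest that 4 against 4 can give; adjusted P = 0.229 over the 8 comparisons of genotypes), so it did not pass after adjustment.

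In the hippocampus at PWK 14 the WT libraries had ratios of 5.122, 7.004, 3.480 and 7.209 and the KI libraries 4.656, 3.909, 2.984 and 3.108. The WT library with 94520 normalized counts of Ttr had the ratio of 3.480, the only WT ratio below the highest KI one. The mean difference of log2 ratios, KI minus WT, was -0.604 (exact permutation P = 0.114, adjusted P = 0.229). At PWK 28 the ratios were 3.981, 4.102, 3.051 and 2.910 in WT and 2.117, 2.862, 2.979 and 2.963 in KI mice, with a difference of -0.360 (exact permutation P = 0.0857, adjusted P = 0.229). Both differences were larger in size than that in the cortex at PWK 28 and had more spread, and whether they differed from it was not tested.

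**Figure D3:**
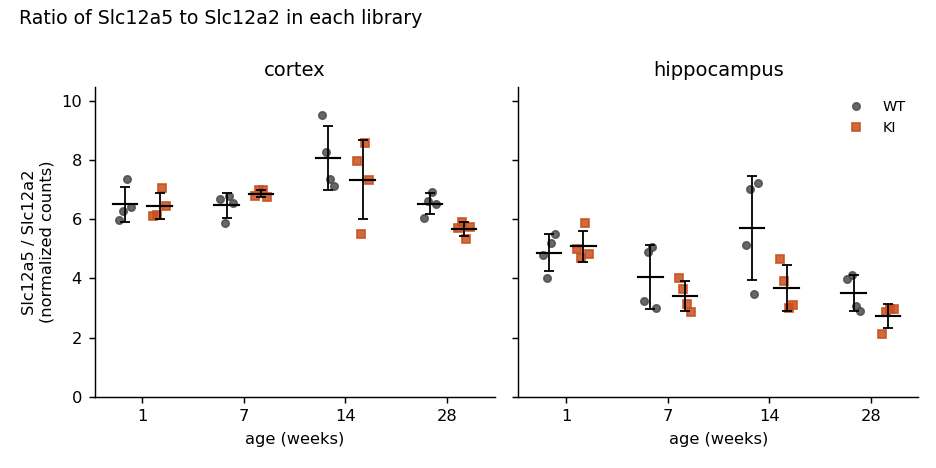
Ratio of Slc12a5 to Slc12a2 in each library (points), by postnatal week, region and genotype, with bars at the group mean and SD of 4 libraries. The 4 KI cortical libraries of PWK 28 lie between 5.319 and 5.918, below the WT libraries at 6.054 to 6.921, and the hippocampal ratios spread more widely.

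Clcn2 (chromosome 16, 20702964 to 20717746, minus strand; ENSMUSG00000022843) fell in 2 of the 4 comparisons of genotypes at PWK 14 and PWK 28. In the cortex at PWK 28 the WT libraries held 2061, 2064, 2047 and 1872 normalized counts and the KI libraries 1307, 1790, 1531 and 1615, without overlap. Clcn2 fell there by 0.37 ± 0.09 on the log2 scale (limma adjusted P = 0.0151). In the hippocampus at PWK 14 the WT libraries held 2537, 2533, 2405 and 2632 and the KI libraries 1813, 2005, 1463 and 1822, again without overlap. The fall was 0.52 ± 0.09 on the log2 scale (limma adjusted P = 0.00637), and the log2 fold change was -0.48 with the choroid plexus covariate (adjusted P = 0.00896). KI libraries were all below WT libraries for 11.8% of all genes in the cortex at PWK 28 and 12.2% in the hippocampus at PWK 14. The shares called lower there were 10.03% and 7.95%. With the oligodendrocyte covariate the cortical value of PWK 28 was -0.37 with an adjusted P of 0.0516.

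The cortical libraries of PWK 14 held 2371, 2314, 2426 and 2658 normalized counts of Clcn2 in WT and 1436, 2119, 2302 and 2206 in KI libraries. All 4 KI libraries were below, as for 7.51% of all genes there, but by a small gap except in KI replicate 1. The log2 fold change of -0.30 ± 0.13 did not pass (limma adjusted P = 0.216). Without KI replicate 1 it was -0.14. In the hippocampus at PWK 28 the libraries overlapped, at 2137, 2161, 2182 and 1970 in WT and 1705, 2047, 2022 and 2121 in KI mice, with a log2 fold change of -0.10 (95% interval -0.26 to 0.05; adjusted P = 0.364). The hippocampal effect at PWK 28 minus that at PWK 14 was 0.42 ± 0.12 (95% interval 0.16 to 0.67; limma adjusted P = 0.190), which did not pass over all genes. The hippocampal effect minus the cortical one at PWK 28 was 0.27 (limma adjusted P = 0.222).

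**Figure D4:**
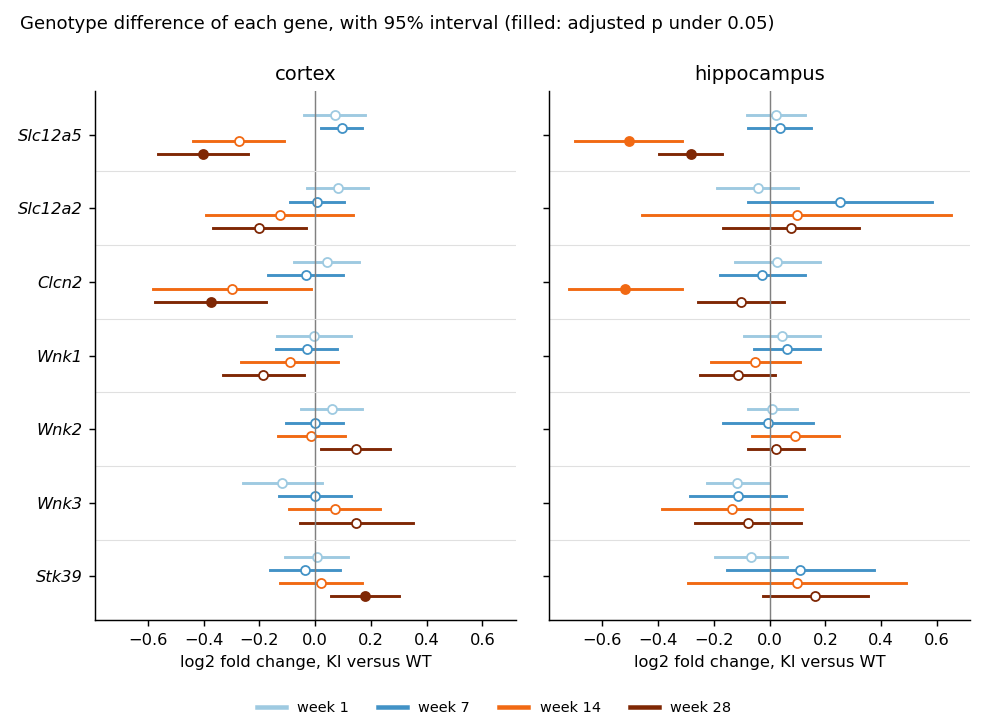
Log2 fold change, KI over WT, with its 95% interval for each of the 7 members at each week in cortex and hippocampus, from limma on 4 KI and 4 WT libraries. The intervals of Slc12a5 lie below 0 at PWK 14 and PWK 28 in both regions, around log2 fold changes of -0.27 to -0.51, and filled symbols mark adjusted P under 0.05 over all genes.

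Of the kinases only Stk39 was called in these fits. Stk39 encodes SPAK, the kinase that WNKs activate (chromosome 2, 68210445 to 68472268, minus strand; ENSMUSG00000027030). In the cortex at PWK 28 its WT libraries held 2103, 2218, 2204 and 2356 normalized counts and its KI libraries 2474, 2565, 2593 and 2419, all 4 above WT. Such a separation was seen in 14.1% of all genes in that comparison, and 12.2% were called higher. Stk39 was higher in KI mice by 0.18 ± 0.06 on the log2 scale (95% interval 0.06 to 0.30; limma adjusted P = 0.0425). This call was near the threshold and was lost in 6 of the 8 fits that left out 1 library (replicate 1, 2 or 3 of either genotype), the 8 adjusted P values ranging from 0.0478 to 0.113. The summed neuronal markers were also higher in these KI libraries, as given above, but the median log2 fold change over the 6 markers was 0.08. Their part in the level of Stk39 was not tested.

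In the hippocampus at PWK 14 Stk39 was highest in the libraries with high Ttr, as Slc12a2 was. The WT libraries of PWK 14 held 1674, 1820, 2578 and 1623 normalized counts, the third being the WT library with the highest Ttr, and the KI libraries 1579, 1852, 2349 and 2439. The log2 fold change was 0.10 (95% interval -0.29 to 0.49) and -0.04 with the choroid plexus covariate. At PWK 28 the libraries held 2082, 1945, 2294 and 2506 in WT and 2690, 2440, 2567 and 2181 in KI mice, with a log2 fold change of 0.16 ± 0.09 (adjusted P = 0.220).

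**Figure D5:**
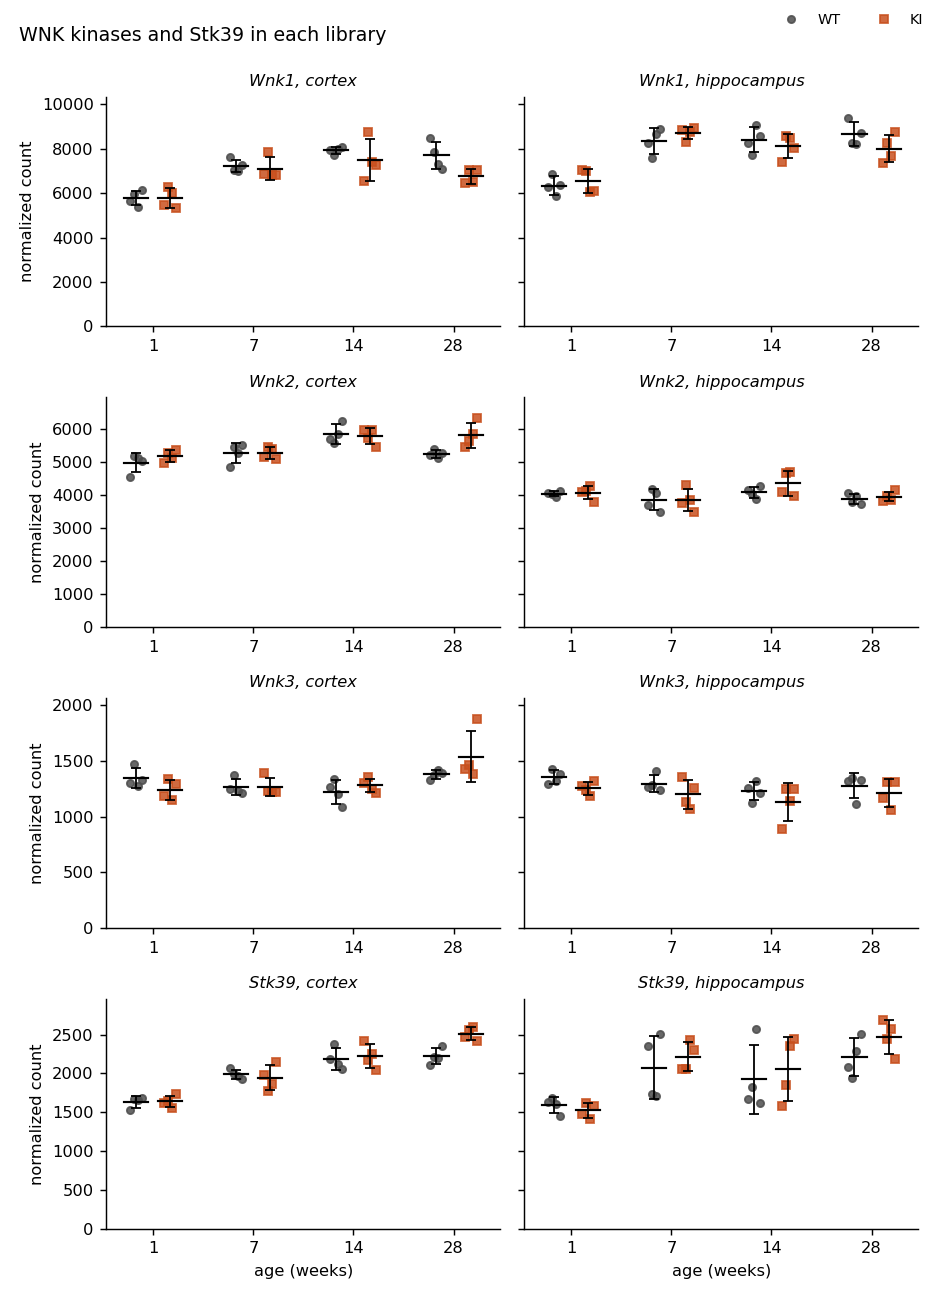
Normalized counts of Wnk1, Wnk2, Wnk3 and Stk39 in each library (points), by postnatal week, region and genotype, with bars at the group mean and SD of 4 libraries. In the cortex at PWK 28 the KI libraries lie above WT for Stk39 and Wnk2 and below WT for Wnk1.

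Wnk1 (chromosome 6, 119923969 to 120038672, minus strand; ENSMUSG00000045962), the widely expressed founding member of the family, held 8476, 7868, 7317 and 7104 normalized counts in WT and 6445, 7048, 6481 and 7044 in KI cortex at PWK 28. All 4 KI libraries were below WT, by a small margin in 2 of them, and the log2 fold change of -0.19 ± 0.07 did not pass (limma adjusted P = 0.0678). In that comparison KI libraries were all below WT libraries for 11.8% of all genes and all above for 14.1%. Wnk1 has a brain form and a kidney form, which a value per gene does not separate. Wnk2 (chromosome 13, 49036303 to 49148014, minus strand; ENSMUSG00000037989), a WNK of neurons, held 5197, 5387, 5099 and 5270 in WT and 5432, 5627, 5838 and 6309 in KI cortex at PWK 28. These KI libraries were all above WT, with a log2 fold change of 0.15 ± 0.06 (adjusted P = 0.0912). Wnk3 (chromosome X, 151198078 to 151320152, plus strand; ENSMUSG00000041245), which activates NKCC1 and inhibits KCC2 when co-expressed with them, held 1324, 1376, 1421 and 1388 in WT and 1429, 1461, 1385 and 1874 in KI cortex at PWK 28. Its log2 fold change of 0.15 ± 0.09 (adjusted P = 0.281) was 0.05 without KI replicate 4.

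Over the 7 members, the median log2 fold change between genotypes was -0.19 in the cortex at PWK 28, beside -0.0034 over all genes, and the median size of the change was 0.185 beside 0.219. In the hippocampus the members' median sizes were 0.0984 at PWK 14 and 0.102 at PWK 28, beside 0.214 and 0.161 over all genes. The members' median size was below that of all genes in these 3 comparisons, and the calls belonged to Slc12a5, Clcn2 and Stk39.

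In WT mice 5 of the 7 members rose between PWK 1 and PWK 7 in both regions, in a comparison in which 33.2% of cortical and 31.8% of hippocampal genes rose. The log2 fold changes in cortex and hippocampus were 0.80 and 0.98 for Clcn2, 0.74 and 0.90 for Slc12a2, 0.74 and 0.60 for Slc12a5, 0.32 and 0.40 for Wnk1, and 0.28 and 0.36 for Stk39. The hippocampal call of Stk39 was lost without replicate 3 or 4 of PWK 1 or replicate 1 or 4 of PWK 7, with adjusted P up to 0.122. Importer and extruder therefore rose side by side, and the ratio did not pass the test between these ages, its mean log2 difference being -0.00567 in the cortex and -0.301 in the hippocampus (exact permutation P = 0.971 and P = 0.229). Wnk2 (0.09 and -0.07) and Wnk3 (-0.09 and -0.07) were not called. All 6 oligodendrocyte markers rose over the same step, with a median log2 fold change of 3.99 in the cortex and 4.90 in the hippocampus, and their part in the rises of the members was not tested.

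Between PWK 7 and PWK 14 no member was called, against 5.31% of all genes in the cortex and 5.57% in the hippocampus. The smallest adjusted P values were 0.0634 for Slc12a2 in the cortex (log2 fold change -0.21) and 0.0691 for Slc12a5 in the hippocampus (0.15). Between PWK 14 and PWK 28 Clcn2 fell in WT cortex by 0.28 on the log2 scale (limma adjusted P = 0.00174; 8.53% of genes fell) and in WT hippocampus by 0.26 (adjusted P = 0.0287; 6.97% of genes fell), and Slc12a5 fell in WT hippocampus by 0.19 (adjusted P = 0.0117). The hippocampal call of Clcn2 was lost without replicate 1, 2 or 4 of PWK 14 or replicate 1 or 4 of PWK 28, with adjusted P up to 0.0921. Slc12a2 was not called there, but without WT replicate 3 of PWK 14, the library of that group with the highest Ttr, its log2 fold change was 0.67 (adjusted P = 0.0112). Of the 6 neuronal markers, Rbfox3 and Slc17a7 were called lower in the same 2 comparisons and the other 4 were not called. The log2 fold changes of these 2 were -0.31 and -0.29 in the cortex and -0.37 and -0.25 in the hippocampus. The medians over the 6 markers were -0.08 and -0.07, and the part of these markers in the result was not tested. The cortical ratio was higher at PWK 14 than at PWK 7 by 0.313 and lower at PWK 28 than at PWK 14 by a log2 difference of -0.298 (exact permutation P = 0.0286 for each, adjusted P = 0.0857 over 6 steps), all libraries of PWK 14 being above those of the neighbouring ages.

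The WT hippocampus had less Slc12a5 and Wnk2 than the cortex at every age. The log2 differences, hippocampus over cortex, at PWK 1, 7, 14 and 28 were -0.26, -0.40, -0.35 and -0.44 for Slc12a5 and -0.30, -0.45, -0.52 and -0.43 for Wnk2, all called. Genes called lower in the hippocampus made up 18.6%, 20.4%, 17.6% and 19.0% of those tested at the 4 ages. Of the 6 neuronal markers, 5 were called lower in the hippocampus at PWK 14 and 6 at PWK 28, and their part in the result was not tested. Clcn2 was lower in the hippocampus at PWK 1 (-0.20; limma adjusted P = 0.0437), a call that was lost when any of 6 of the 8 libraries was left out (cortical replicates 2, 3 and 4, hippocampal replicates 2, 3 and 4), with adjusted P up to 0.108.

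Slc12a2 and Wnk1 lay on the other side. Wnk1 was higher in the hippocampus at PWK 7 (0.21; limma adjusted P = 0.00706) and PWK 28 (0.17; adjusted P = 0.0458), and Slc12a2 at PWK 28 (0.47; adjusted P = 0.00272), where 20.4% and 18.8% of all genes were called higher at PWK 7 and PWK 28. The Wnk1 call of PWK 28 was lost without cortical replicate 2, 3 or 4 or hippocampal replicate 1 or 4, with adjusted P up to 0.134. The hippocampal libraries of PWK 28 all held high Ttr, from 33030 to 114193 normalized counts in WT mice, and its part in the level of Slc12a2 was not tested between regions. The ratio of Slc12a5 to Slc12a2 was lower in the hippocampus by a mean log2 difference of -0.421 at PWK 1, -0.716 at PWK 7 and -0.910 at PWK 28 (exact permutation, adjusted P = 0.0381 for each over 4 ages), with all 4 hippocampal libraries below the cortical ones. Paired by replicate number, each had an adjusted P of 0.167, 4 pairs allowing no exact P below 0.125. At PWK 1 all 4 such pairs deviated together, and with a replicate block there Clcn2 was no longer called (limma adjusted P = 0.0506) and Wnk1 was (0.13, adjusted P = 0.0242). At PWK 14 the difference was -0.549 (exact permutation, adjusted P = 0.0571), and -0.331 without hippocampal replicate 3, the library with the highest Ttr.

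Other genes of chloride transport were read from 4 lists. Of all genes tested, 2.48% were called higher and 2.70% lower in the cortex at PWK 14, 12.2% and 10.03% in the cortex at PWK 28, 7.64% and 7.95% in the hippocampus at PWK 14, and 8.92% and 6.91% in the hippocampus at PWK 28. Of the 7 further members of the cation-chloride cotransporter family, 6 were in the table and tested, and none was called at PWK 1, PWK 7 or in the cortex at PWK 14. Slc12a3, the thiazide-sensitive cotransporter, was called higher in KI mice at PWK 28, by a log2 fold change of 1.50 in the cortex (limma adjusted P = 0.0085) and 1.08 in the hippocampus (adjusted P = 0.0183), but at low levels of 26.1 against 81.2 and 19.7 against 43.6 normalized counts. The medians of this list were -0.11 in the cortex at PWK 28 and 0.10 in the hippocampus at PWK 14, beside -0.0034 and 0.0060 over all genes.

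Of the 9 other genes of the WNK pathway, 2 were called higher and none lower in the cortex at PWK 28, where 12.2% of all genes rose and 10.03% fell. They were Klhl2 (log2 fold change 0.55, limma adjusted P = 0.00021) and Cul3 (0.35, adjusted P = 0.0273), parts of the ubiquitin ligase that degrades WNK kinases. In the hippocampus Sgk1, a stress-responsive kinase, was called higher at PWK 14 (0.64, adjusted P = 0.0438), and none was called at PWK 28 or in the cortex at PWK 14. The KI effect on Klhl2 was lower in the hippocampus than in the cortex at PWK 28, by a log2 difference of -0.45. The list's medians were -0.0164 in the cortex at PWK 28 and 0.22 in the hippocampus at PWK 14.

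Of the 16 tested genes of other chloride, anion and bicarbonate transport, 3 were called higher and none lower in the cortex at PWK 14, 4 higher and 4 lower in the cortex at PWK 28, 2 higher and 2 lower in the hippocampus at PWK 14, and 5 higher and 1 lower in the hippocampus at PWK 28. Slc4a10, a sodium-driven bicarbonate transporter of neurons, was higher in KI mice in the first 3 of these comparisons, with log2 fold changes of 0.52, 0.53 and 0.50. Lrrc8d, a subunit of volume-regulated anion channels, was higher at PWK 28 in the cortex (0.61) and hippocampus (0.51), and Lrrc8a, the subunit those channels require, was higher in the hippocampus at PWK 14 (0.63). Slc4a3, a chloride-bicarbonate exchanger of neurons, was lower in the cortex at PWK 28 (-0.45) and in the hippocampus at PWK 14 (-0.56) and PWK 28 (-0.23). Car2, a carbonic anhydrase, was lower in the cortex at PWK 28 (-0.39) and hippocampus at PWK 14 (-0.31), and Car7, its neuronal relative, was higher in the cortex at PWK 14 (0.46). Mlc1 was higher in the hippocampus at PWK 28 (0.29). The medians were 0.12, 0.12 and 0.15 in the cortex at PWK 28 and the hippocampus at PWK 14 and PWK 28.

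Among 9 partners and regulators of KCC2, none was called higher and 1 lower in the cortex at PWK 14, 1 higher and 3 lower in the cortex at PWK 28, and 2 higher and 2 lower in the hippocampus at both adult ages, beside 7.64% and 8.92% of all genes called higher there at PWK 14 and PWK 28. Bdnf, the neurotrophin that regulates Slc12a5 expression, was higher in KI mice with log2 fold changes of 1.40 in the cortex at PWK 28, 1.73 in the hippocampus at PWK 14 and 1.09 at PWK 28. Its receptor gene Ntrk2 was lower in the cortex at PWK 28 (-0.32), as was Grik2 (-0.53), a kainate receptor subunit that binds KCC2. Neto2, an auxiliary subunit that binds KCC2, was lower in the hippocampus at PWK 14 (-0.31) and PWK 28 (-0.40), and so was Prkcd (-0.83 and -0.86), a protein kinase C. Besides Bdnf, the genes called higher in the hippocampus were Arhgef7 at PWK 14 (0.30) and Ckb at PWK 28 (0.19). Epb41l1 was lower in the cortex at PWK 14 (-0.24). The list's medians were -0.12, -0.13, 0.11 and -0.06 in the 4 adult comparisons, cortex first.

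The genes whose 16 group means lay closest to those of Slc12a5 were Epop, Ltk and Hdgf, with Pearson r of 0.984, 0.980 and 0.977 over groups among 12333 protein-coding genes searched. Those closest to Slc12a2 were Cd82, Elovl7 and Nqo1, at 0.969, 0.964 and 0.962. Slc12a5 and Slc12a2 were themselves at 0.305, Slc12a5 and Clcn2 at 0.806, and Slc12a2 and Wnk1 at 0.887. The 16 groups share the age and region steps, so these values describe likeness over groups and are not independent points.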

How the data were processed

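RNA-seq was made from frontal cortex and hippocampus of Cyfip2 KI and WT mice (stranded mRNA kit per the labels). The signal values are DESeq2-normalized counts that the authors deposited; the submitters' processing notes name Salmon 0.11.2, R 3.6.0, DESeq2 1.19.11 and GRCm38. They are not whole counts, so raw depth is unknown and no count model was fitted. Here log2(value + 1) was fitted with limma 3.58.1 (trend; R 4.3.3) for genes with a mean of at least 1, with Benjamini-Hochberg adjustment over all genes and calls under 0.05, 4 against 4 libraries per comparison. WT ages shared 1 fit per region. Because of the added 1, changes of weakly expressed genes are understated. The log2 ratio of Slc12a5 to Slc12a2 was compared by exact two-sided permutation tests. Named genes of a list were taken from the 2 with the smallest P in each direction among those called, and not all of those are named. The members and lists were chosen with earlier results of these data known. The scripts were tested on simulated data. P values set a difference between groups against the spread between the libraries sampled in this study. In tests across regions the libraries were treated as independent, although both regions came from each mouse. The promoter windows come from RefSeq, build GRCm38.p6, and those of 6 of the 7 members were searched, Slc12a2 being left out. One listed gene is not reported here.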

Additional observations from a re-analysis of the deposited data

Results flagged for a closer look

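Groups of 4 libraries in which 1 library lay far from the other 3 by Dixon's test numbered 8 of the 128 tested (7 genes and the ratio in 16 groups), and chance flags about 1 group in 20. Slc12a5 was at 8291 normalized counts in WT hippocampus replicate 2 of PWK 1, the other 3 being at 9285 to 9346. Clcn2 was at 1872 in WT cortex replicate 4 of PWK 28, the other 3 being at 2047 to 2064. Wnk1 was at 7869 in KI cortex replicate 2 of PWK 7, the other 3 being at 6816 to 6858. Wnk3 was at 1874 in KI cortex replicate 4 of PWK 28 (others 1385 to 1461), at 1391 in KI cortex replicate 1 of PWK 7 (others 1216 to 1232) and at 1112 in WT hippocampus replicate 3 of PWK 28 (others 1318 to 1345). Stk39 was at 1525 in WT cortex replicate 1 of PWK 1, the other 3 being at 1658 to 1682. The ratio of Slc12a5 to Slc12a2 was 2.117 in KI hippocampus replicate 1 of PWK 28, the other 3 being at 2.862 to 2.979. The cause of these values was not tested.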

How the results depend on the processing

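No result changed direction past its threshold under any alternative. The falls of Slc12a5 in the cortex at PWK 28 and in the hippocampus at PWK 14 and PWK 28 and of Clcn2 in the hippocampus at PWK 14 were called under every alternative run. Of 1190 log2 fold changes of members recomputed under the alternatives other than leaving out a library, 32 had another sign, none of them called. The members called between genotypes in the cortex at PWK 14 numbered 0, and 2 with all 64 libraries in 1 fit (Slc12a5, adjusted P = 0.00185, and Clcn2, 0.0271) and 1 with sample quality weights (Slc12a5, 0.0457); leaving out 1 library gave 0 to 1. In the cortex at PWK 28 they numbered 3, and 1 with the oligodendrocyte covariate, while leaving out 1 library gave 2 to 3. The members called there also changed under the settings named next. The Stk39 call there was lost with total-sum scaling (adjusted P = 0.118), all 64 libraries (0.199) and a GC and length correction (0.0862), while Slc12a2 was called with total-sum scaling (0.0427) and without KI replicate 2 (0.0207), Wnk1 with total-sum scaling (0.0348) and all 64 libraries (0.0317), and Wnk2 with all 64 libraries (0.0381). Members called between WT PWK 14 and PWK 28 in the cortex numbered 1, and 2 with a pseudocount of 10 and 3 with a mean of at least 100, with total-sum scaling and with quality weights; leaving out 1 library gave 1 to 3 there and 1 to 3 in the hippocampus. Between WT PWK 7 and PWK 14 they numbered 0, and 1 with quality weights in the cortex and 1 with total-sum scaling in the hippocampus; leaving out 1 library gave 0 to 1 in each. The hippocampal fall of Clcn2 after PWK 14 was lost with all 64 libraries (0.077), its difference between regions at PWK 1 with total-sum scaling (0.253) and all 64 libraries (0.0928), that of Wnk1 at PWK 28 without a filter (0.056), and the rise of Stk39 in the hippocampus with total-sum scaling (0.0812). The cause of these changes was not tested.

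Equal replicate numbers of cortex and hippocampus deviated together, with a correlation over 0.1, in all 4 pairs of WT mice at PWK 1 and of KI mice at PWK 28, but in 17 of all 32 such pairs, and in 10 of 32 pairs of KI with WT libraries. The pairs of WT mice at PWK 1 had correlations of 0.102 to 0.256 and those of KI mice at PWK 28 of 0.239 to 0.443. The main fits and tests treated all libraries as independent at every age. Equal numbers were used as pairs only in the alternatives with a replicate block. With a replicate block the WT calls after PWK 14 numbered 2 in the cortex and 1 in the hippocampus, Stk39 in the cortex at PWK 28 had an adjusted P of 0.0914, Clcn2 had 0.0523 after PWK 14 in the hippocampus and 0.0506 between regions at PWK 1, and Wnk1 between regions at PWK 1 was called (0.0242). The ratio between regions at PWK 1, 7 and 28, with differences of -0.421, -0.716 and -0.910, had an adjusted P of 0.167, since an exact test of 4 pairs cannot go below 0.125. Leaving out 1 library leaves 3 against 4, and the ratio difference in the cortex at PWK 28 then lay between -0.238 and -0.173. Raw depth is unknown, so counting error is not known either.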
